A study of Mus musculus with 8 samples.

Results

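The lysyl oxidase family of the mouse consists of Lox, Loxl1, Loxl2, Loxl3 and Loxl4. The genes were taken by symbol from the deposited expression table, where 5 of the 34745 listed genes carried one of these names, and all 5 had enough counts to be tested among 16576 genes. RNA of kidney from mice labelled wild type was sequenced at day 14 in 8 libraries, namely 3 labelled uIRI with transplanted MSC (uIRI+MSC), 3 labelled uIRI and 2 labelled sham. In kidney research uIRI is the usual short form of unilateral ischaemia-reperfusion injury and MSC that of mesenchymal stem or stromal cells, but the labels spell out neither. They also leave out strain, age and sex, and where the cells came from, how many were given and when. It is not stated whether libraries of a group represent separate animals, so the tests weigh differences against the spread between libraries, which may be technical.

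Lysyl oxidases are secreted, copper-dependent amine oxidases. They convert the side chains of lysines in collagen and elastin to aldehydes, which then react with neighbouring chains to form the covalent cross-links that stiffen the extracellular matrix. Lox and Loxl1 are made as pro-enzymes that the protease Bmp1 cuts, whereas Loxl2, Loxl3 and Loxl4 carry scavenger receptor cysteine-rich domains in front of the shared catalytic domain. In the kidney the family is known for its place in fibrosis, the build-up of collagen in the interstitium after injury.

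What the members share at the sequence level is the copper-binding site of the catalytic domain, made up of 3 histidines. The stretch around it is shown because it is the feature that defines the family and because closely similar stretches bear on how reads can be assigned to single members. Each line gives 81 coding bases of the transcript, 5′ to 3′, from GENCODE M21 on GRCm38, with the codons of the 3 histidines in capitals.
Loxl1: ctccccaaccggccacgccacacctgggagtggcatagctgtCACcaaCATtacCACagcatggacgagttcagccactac
Loxl2: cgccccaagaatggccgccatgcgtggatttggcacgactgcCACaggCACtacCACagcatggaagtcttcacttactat
Loxl3: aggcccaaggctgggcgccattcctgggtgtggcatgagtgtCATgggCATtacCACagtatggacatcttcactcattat
Loxl4: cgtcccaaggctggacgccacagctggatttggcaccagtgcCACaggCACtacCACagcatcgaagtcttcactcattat
All 4 stretches cross an exon junction, so their genomic spans include an intron. The Loxl1 stretch joins exons 3 and 4 of 7 at chr9:58293696-58294405 on the minus strand. That of Loxl2 joins exons 10 and 11 of 14 at chr14:69682292-69689061 on the plus strand. The Loxl3 stretch joins exons 10 and 11 of 14 at chr6:83049971-83050149 on the plus strand, and that of Loxl4 exons 11 and 12 of 15 at chr19:42598783-42599923 on the minus strand. Over these 81 bases Lox and Loxl1 were identical at 85.2% of positions, Loxl2 and Loxl4 at 84.0%, Loxl3 and Loxl4 at 77.8%, and Loxl2 and Loxl3 at 75.3%. The 6 pairs that set Lox or Loxl1 against Loxl2, Loxl3 or Loxl4 were identical at 58.0 to 65.4%. Across the whole reference transcripts the longest run of bases that any pair of members shared was 32, between Lox and Loxl1.

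On GRCm38 the table places Lox (ENSMUSG00000024529) at 52516069 to 52529867 of chromosome 18 and Loxl1 (ENSMUSG00000032334) at 58287723 to 58313212 of chromosome 9, both on the minus strand. Loxl2 (ENSMUSG00000034205) spans 69609068 to 69695834 of chromosome 14, and Loxl3 (ENSMUSG00000000693) 83034173 to 83052562 of chromosome 6, both on the plus strand. Loxl4 (ENSMUSG00000025185) spans 42593982 to 42612813 of chromosome 19 on the minus strand. Of the exonic bases of Loxl3, 11.6% (535 bases) lie opposite exons of Htra2, which encodes a mitochondrial protease. Htra2 had 162 to 824 counts per library and a log2 change of 0.84 in uIRI against sham, and since the strand setting of the counting is not given, reads of the shared stretch cannot be told apart between the 2 genes. Loxl2 shares 301 bases (5.57%) with the antisense gene Gm27177, which had 0 counts in every library.

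Depth ran from 11592986 to 24300112 counts per library. Averaged over genes, replicate libraries differed more than counting alone would make them, by 16.7 to 73.6 times its variance. These averages scale libraries by total counts alone, and genes with many counts can weigh heavily in them. The library uIRI+MSC 3 lay away from the others on the third principal component (-62.3, against -8.3 to 15.1 elsewhere) and had 11.3% of its counts from mitochondrial transcripts, against 6.07 and 6.24% in the other uIRI+MSC libraries. That share also moved with the groups, at 3.49 to 4.84% in uIRI against 14.2% in both sham libraries, and its part in the comparisons with sham was not tested. The 10 proximal tubule markers had at least 1 count in every library, and their summed CPM was 12070.0 to 16458 in uIRI+MSC, 2339 to 8209 in uIRI and 43409 to 57815 in sham. CPM are counts scaled to a library of 1e6 counts after TMM scaling, which uses a trimmed mean of ratios between libraries.

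The comparison of uIRI with sham asks which cross-linking enzymes differed in the injured kidney by day 14. Transcripts of 4 of the 5 members, Lox, Loxl1, Loxl2 and Loxl3, were between 8.77 and 19.6 times as abundant in uIRI as in sham, and the change of Loxl4 did not pass the test. For none of these 4 did the libraries of the groups overlap, as held for 40.6% of all tested genes in this direction. Over all genes tested, 28.3% were called higher and 26.3% lower at an adjusted p of 0.05 by the quasi-likelihood test of edgeR. The median log2 change was 3.33 over the 5 members and 0.06 over all genes. In bulk RNA fewer cells of a type and less RNA per cell cannot be told apart.

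Lox encodes the founding enzyme of the family, which cross-links fibrillar collagen and elastin. It had 125, 81.9 and 44.7 CPM in uIRI 1, 2 and 3, against 2.72 and 5.80 CPM in sham 1 and 2. Every uIRI library lay above both sham libraries, although uIRI 1 was 2.80 times as high as uIRI 3 and the sham values rest on 28 and 63 counts. The log2 change was 4.29 ± 0.60 (SE, adjusted p = 0.000452, edgeR), with a 95% interval of 2.93 to 5.65. Without sham 2 it was 4.96.

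Loxl1, which in mice is needed to renew elastic fibres, stood at 148, 131 and 97.9 CPM in uIRI 1, 2 and 3, against 14.8 and 13.9 CPM in sham 1 and 2. The groups did not overlap and the sham libraries lay close together. Its log2 change of 3.13 ± 0.23 (adjusted p = 3.33e-05, edgeR) corresponds to 8.77-fold, the smallest rise of the 4 members that passed.

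Loxl2, whose product cross-links type IV collagen of basement membranes as well as fibrillar collagen, had 142, 94.4 and 69.4 CPM in uIRI 1, 2 and 3, against 9.42 and 10.8 CPM in sham 1 and 2. Loxl3, which is needed for palate and spine development in mice, had 47.68, 34.99 and 33.01 CPM in uIRI 1, 2 and 3, against 2.53 and 3.41 CPM in sham 1 and 2. For both genes all uIRI libraries exceeded both sham libraries, with uIRI 1 the highest. The log2 change was 3.33 ± 0.35 for Loxl2 (adjusted p = 0.000130, edgeR) and 3.70 ± 0.27 for Loxl3 (adjusted p = 3.39e-05, edgeR). The sham values of Loxl3 rest on 26 and 37 counts.

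Loxl4, whose copper-site stretch is closest to that of Loxl2, had 11.7, 11.4 and 8.10 CPM in uIRI 1, 2 and 3, against 11.3 and 6.35 CPM in sham 1 and 2. The groups overlapped. The log2 change was 0.25 ± 0.29 (adjusted p = 0.5003, edgeR), and its 95% interval of -0.42 to 0.91 lies below the lower bound of each of the other 4 members, the nearest being 2.53 for Loxl2. The difference between members was not tested. The call depends on the scaling. With library size alone in place of TMM, which moves the median of all genes to 0.73, Loxl4 stood at 0.93 (adjusted p = 0.0187, edgeR), the lowest of a range that reached 0.828 over the alternatives.

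Ranked among all 16576 tested genes by log2 change, Lox stood at percentile 97.0, Loxl3 at 95.6, Loxl2 at 94.3, Loxl1 at 93.4 and Loxl4 at 57.1. The uIRI libraries kept one order within the family. For all 5 members uIRI 1 was the highest and uIRI 3 the lowest of the 3 libraries, with a ratio of the highest to the lowest of 2.80 for Lox, 2.04 for Loxl2, 1.52 for Loxl1, 1.45 for Loxl4 and 1.44 for Loxl3. This order is not particular to the family. The summed CPM of fibroblast and pericyte markers (2121, 1511 and 1171) and of myofibroblast and smooth muscle markers (1305, 841 and 721) had it too. Those of macrophage and endothelial markers did not. The share of all genes with this order was not counted.

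**Figure D1:**
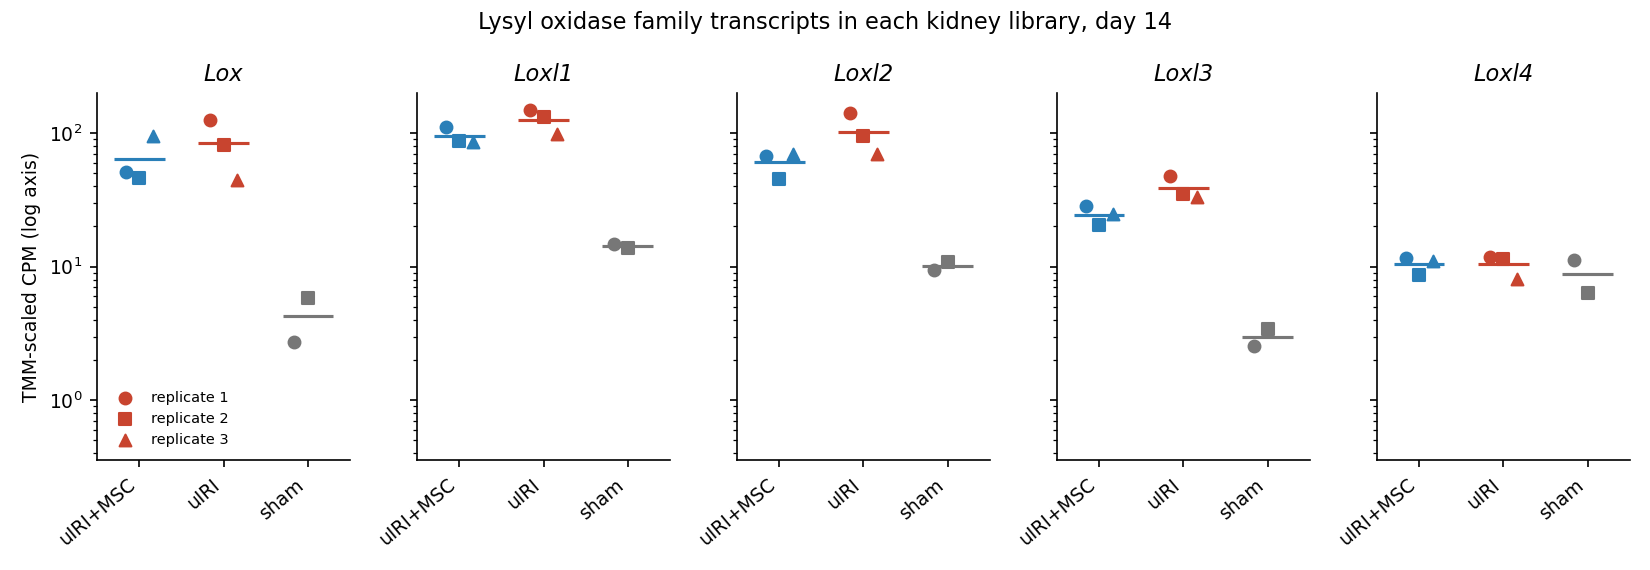
TMM-scaled CPM of each member (log axis) in every library of uIRI+MSC, uIRI and sham, with symbols for the replicate number and a line at the group mean. Lox, Loxl1, Loxl2 and Loxl3 lay above sham in all 6 injured libraries, while the groups overlapped for Loxl4.

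The comparison of uIRI+MSC with uIRI asks whether the cell transplantation went with a different level of these enzymes after injury. No member passed the threshold, and neither did any other gene with edgeR (0.00% of 16576). At an unadjusted p of 0.05 there were 3418 genes (20.6%), with 9.34% of all tested genes lower. DESeq2 called 1364 genes, limma-voom 0. The fitted changes of Loxl1, Loxl2 and Loxl3 were negative with an unadjusted p under that threshold, those of Lox and Loxl4 had larger p-values, and the family median was -0.40, against -0.01 over all genes.

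Loxl3 had 28.4, 20.4 and 24.9 CPM in uIRI+MSC 1, 2 and 3, all below the uIRI range of 33.01 to 47.68 CPM. It was the only member whose libraries did not overlap between these groups, as held for 12.7% of all tested genes in this direction. The log2 difference was -0.65 ± 0.19 (adjusted p = 0.130, edgeR), with a 95% interval of -1.09 to -0.21. DESeq2 put it at -0.67 with an adjusted p of 0.0391, the lowest of a range that reached 0.364 over the alternatives.

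Loxl2 had 67.2, 45.2 and 70.3 CPM in uIRI+MSC 1, 2 and 3, against 69.4 to 142 CPM in uIRI, so that uIRI+MSC 3 reached into the uIRI range. Its log2 difference was -0.74 ± 0.27 (adjusted p = 0.178, edgeR; 95% interval -1.35 to -0.14). Loxl1 had 112, 87.2 and 86.4 CPM in uIRI+MSC 1, 2 and 3, against 97.9 to 148 CPM in uIRI, and here uIRI+MSC 1 overlapped. The log2 difference of Loxl1 was -0.40 ± 0.17 (adjusted p = 0.240, edgeR; 95% interval -0.80 to -0.01).

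Lox was the most uneven member within uIRI+MSC. It had 51.3 and 46.0 CPM in uIRI+MSC 1 and 2 but 95.5 CPM in uIRI+MSC 3, the library that also lay apart on the third principal component, against 44.7 to 125 CPM in uIRI. The groups overlapped, and the log2 difference was -0.39 ± 0.41 (adjusted p = 0.631, edgeR; 95% interval -1.33 to 0.55). It was -0.77 without uIRI+MSC 3 and 0.02 without uIRI 1. Leaving out uIRI+MSC 3 gave -0.33 for Loxl1, -0.84 for Loxl2, -0.65 for Loxl3 and -0.03 for Loxl4.

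Loxl4 averaged 10.4 ± 1.53 CPM in uIRI+MSC and 10.4 ± 2.01 CPM in uIRI (SD, n = 3 each), with 11.5, 8.65 and 11.0 CPM in uIRI+MSC 1, 2 and 3. The 95% interval of its log2 difference ran from -0.58 to 0.57. By log2 difference Loxl2 stood at percentile 7.88 of all tested genes, Loxl3 at 10.1, Loxl1 at 18.9, Lox at 19.7 and Loxl4 at 50.4.

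Set against sham, the uIRI+MSC kidney still carried more transcript of the same 4 members. This comparison shares its sham libraries with the comparison of uIRI with sham and its uIRI+MSC libraries with that against uIRI. Lox, Loxl1, Loxl2 and Loxl3 passed as higher, as did 22.1% of all tested genes, and none of the 4 overlapped with sham, as held for 33.0% of genes in this direction. Lox averaged 64.3 ± 27.2 CPM in uIRI+MSC (n = 3) and 4.26 ± 2.18 CPM in sham (SD, n = 2), a log2 change of 3.90 ± 0.59 (adjusted p = 0.00124, edgeR) that was 4.59 without sham 2. The log2 change was 2.73 ± 0.22 for Loxl1 (adjusted p = 9.71e-05, edgeR), 2.59 ± 0.34 for Loxl2 (adjusted p = 0.000685, edgeR) and 3.05 ± 0.27 for Loxl3 (adjusted p = 0.000117, edgeR). Loxl4 stood at 0.24 ± 0.29 (adjusted p = 0.536, edgeR; 95% interval -0.43 to 0.91). With library size alone it was 0.77 with an adjusted p of 0.0499, the lowest of a range that reached 0.857 over the alternatives.

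**Figure D2:**
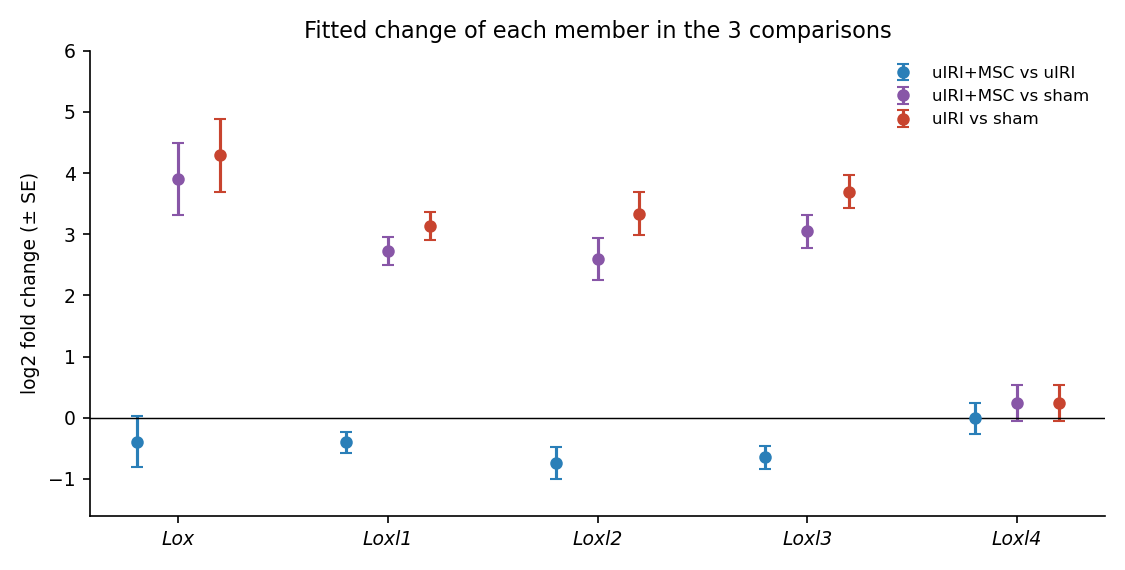
Log2 fold change of each member with its SE (bars) in uIRI+MSC against uIRI, uIRI+MSC against sham and uIRI against sham, from the fit across all 16576 tested genes. Lox, Loxl1, Loxl2 and Loxl3 lay between 2.59 and 4.29 in both comparisons with sham, Loxl4 at 0.24 and 0.25, and no difference of uIRI+MSC from uIRI passed the threshold.

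Levels can be set between members only per length of transcript, for which the deposited FPKM values were used. The gene lengths these imply are 7456 bases for Lox, 3338 for Loxl1, 6064 for Loxl2, 5534 for Loxl3 and 5361 for Loxl4. The exonic bases in GENCODE M21 are fewer, at 4778 for Lox, 5405 for Loxl2 and 4603 for Loxl3, with the widest gap for Lox. The FPKM order between members, above all the place of Lox, and the shares below depend on the lengths used. Other lengths were not tried. Loxl1 had the highest FPKM of the family in all 8 libraries. Its group mean was 29.9 FPKM in uIRI+MSC, 44.2 FPKM in uIRI and 3.16 FPKM in sham. In uIRI the order by mean FPKM was Loxl1, Loxl2 (19.8), Lox (13.3), Loxl3 (8.18) and Loxl4 (2.27). That order held within each uIRI library, with Lox and Loxl3 closest at 6.91 and 6.87 FPKM in uIRI 3, but over the 3 libraries the FPKM ranges of Loxl2 and Lox and of Lox and Loxl3 overlapped. In uIRI+MSC the mean FPKM was 10.52 for Loxl2, 9.00 for Lox, 4.66 for Loxl3 and 2.03 for Loxl4, and Lox exceeded Loxl2 in uIRI+MSC 3 only. In sham Loxl2 (1.23 FPKM) and Loxl4 (1.20 FPKM) came next after Loxl1, ahead of Lox (0.427 FPKM) and Loxl3 (0.397 FPKM), and the ranges overlapped within each of these pairs.

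As shares of the summed FPKM of the family, Loxl1 made up 45.5 to 58.0% in uIRI+MSC, 46.6 to 54.1% in uIRI, and 49.7 and 48.9% in sham 1 and 2. Both sham values fell inside the ranges of the other groups. The rest was divided differently. Loxl4 made up 3.58 to 3.66% in uIRI+MSC and 2.29 to 2.87% in uIRI, against 23.6 and 13.9% in sham 1 and 2. Lox made up 11.7 to 22.5% in uIRI+MSC and 11.1 to 17.6% in uIRI, against 4.10 and 9.13% in sham 1 and 2. In both cases the injured libraries did not overlap with sham. Loxl2 held 16.5 to 20.4% in uIRI+MSC, 21.0 to 24.5% in uIRI, and 17.5 and 20.9% in sham 1 and 2. Loxl3 held 7.93 to 8.74% in uIRI+MSC, 8.51 to 11.0% in uIRI, and 5.13 and 7.23% in sham 1 and 2. For Loxl3 too the injured libraries did not overlap with sham. Shares within 1 library have to add up, so a lower share of 1 member can come from a rise of the others, and they were not tested.

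**Figure D3:**
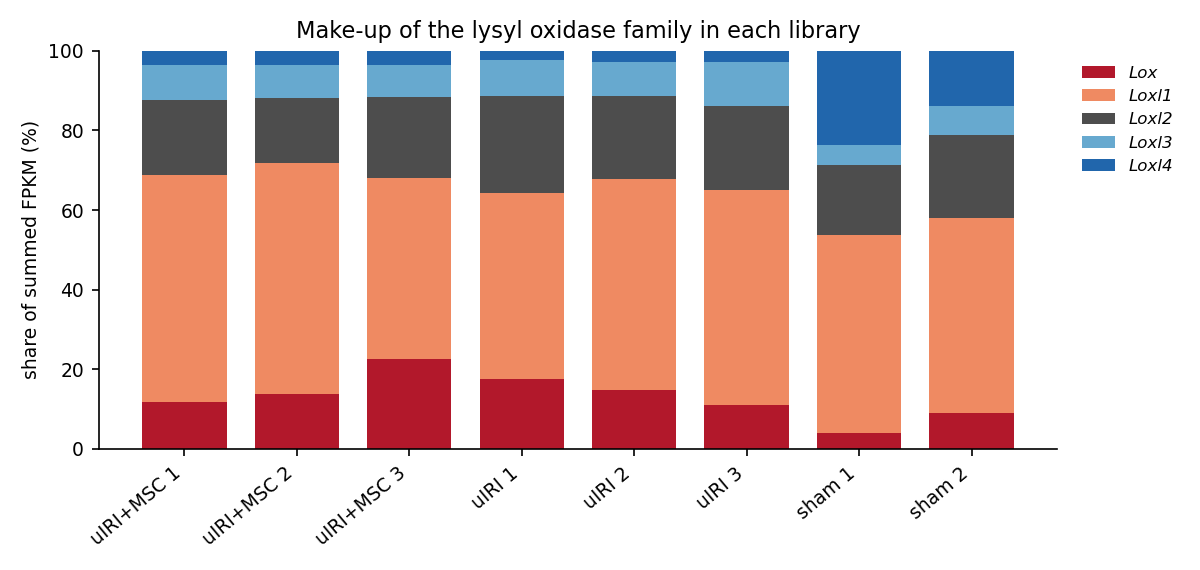
Share of each member in the summed FPKM of the family (%), 1 bar per library of uIRI+MSC, uIRI and sham. The Loxl1 share lay between 45.5 and 58.0% in all 8 libraries, while the Loxl4 share was 13.9 and 23.6% in sham and at most 3.66% elsewhere.

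The summed FPKM of the family was 48.2 to 61.8 in uIRI+MSC, 62.5 to 117 in uIRI and 6.28 to 6.52 in sham. FPKM are scaled by library size without TMM, so these sums are on another scale than the CPM above. Per 100 FPKM of the 11 fibrillar collagen genes the family made up 16.5 to 23.3 FPKM in uIRI+MSC and 12.6 to 17.0 FPKM in uIRI, against 28.0 and 20.8 FPKM in sham 1 and 2. Family transcripts were lower relative to those of fibrillar collagen in every uIRI library than in both sham libraries, while uIRI+MSC overlapped with both groups.

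The substrates of the family were examined next. Of the 11 fibrillar collagen genes 10 were tested, of which 9 rose and 1 fell in uIRI against sham, with a median log2 change of 2.86. For this list and those below, the shares over all tested genes in that comparison were 28.3% higher and 26.3% lower. The genes of the main fibril collagens were among the clearest rises, with Col1a1 at 4.51 ± 0.52, Col3a1 at 4.54 ± 0.49 and Col1a2 at 4.07 ± 0.47. Col5a1, whose product sets fibril diameter, changed by 3.46 ± 0.43. The gene that fell was Col27a1, at -1.01, and it no longer passed as lower with library size alone. Genes outside the naming rule that are named to account for a small count, such as Col27a1, were chosen after their values were seen.

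All 17 elastic fibre genes were tested and all 17 rose in uIRI against sham, with a median log2 change of 3.003. They included Ltbp2 (5.93 ± 0.49), which encodes a microfibril-associated protein, and Mfap2 (4.44 ± 0.45) and Fbn1 (3.79 ± 0.37), which encode microfibril proteins. The fitted changes of Fbn2 and, among collagen-modifying enzymes, P4ha3 depend on the prior count of the fit, since both had 0 counts in at least 1 library, and no size is given for them. Eln, the gene of the elastin core itself, changed by 2.39 ± 0.42 (adjusted p = 0.00147, edgeR), and it is named outside the naming rule, after its values were seen. In uIRI+MSC against uIRI none of these genes passed, but 6 of the 17 elastic fibre genes and 0 of the 10 fibrillar collagen genes lay wholly below uIRI, beside 12.7% of all genes. The medians of that difference were -0.65 for elastic fibre genes and -0.72 for fibrillar collagens. DESeq2 called 5 elastic fibre genes and 1 fibrillar collagen gene lower, beside 570 of all 16576 tested genes. Against sham, 13 of 17 elastic fibre genes and 6 of 10 fibrillar collagens were still higher in uIRI+MSC, beside 22.1% of all tested genes. The 4 elastic fibre genes that did not pass there were Fbln5 (0.45), Efemp1 (0.40), Ltbp1 (0.40) and Ltbp4 (0.87).

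Type IV collagen, the network of basement membranes that Loxl2 cross-links, divided by chain. Of 6 chain genes and Pxdn, 4 rose, 2 fell and 1 did not pass in uIRI against sham. Col4a1 rose by 1.89 ± 0.28 and Pxdn, which encodes the peroxidase that forms sulfilimine cross-links in this network, by 2.43 ± 0.24. Col4a3 and Col4a4, which encode chains of the mature glomerular basement membrane, changed by -1.46 ± 0.20 and -1.23 ± 0.17, and Col4a5 by 0.36 without passing (adjusted p = 0.0652, edgeR).

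**Figure D4:**
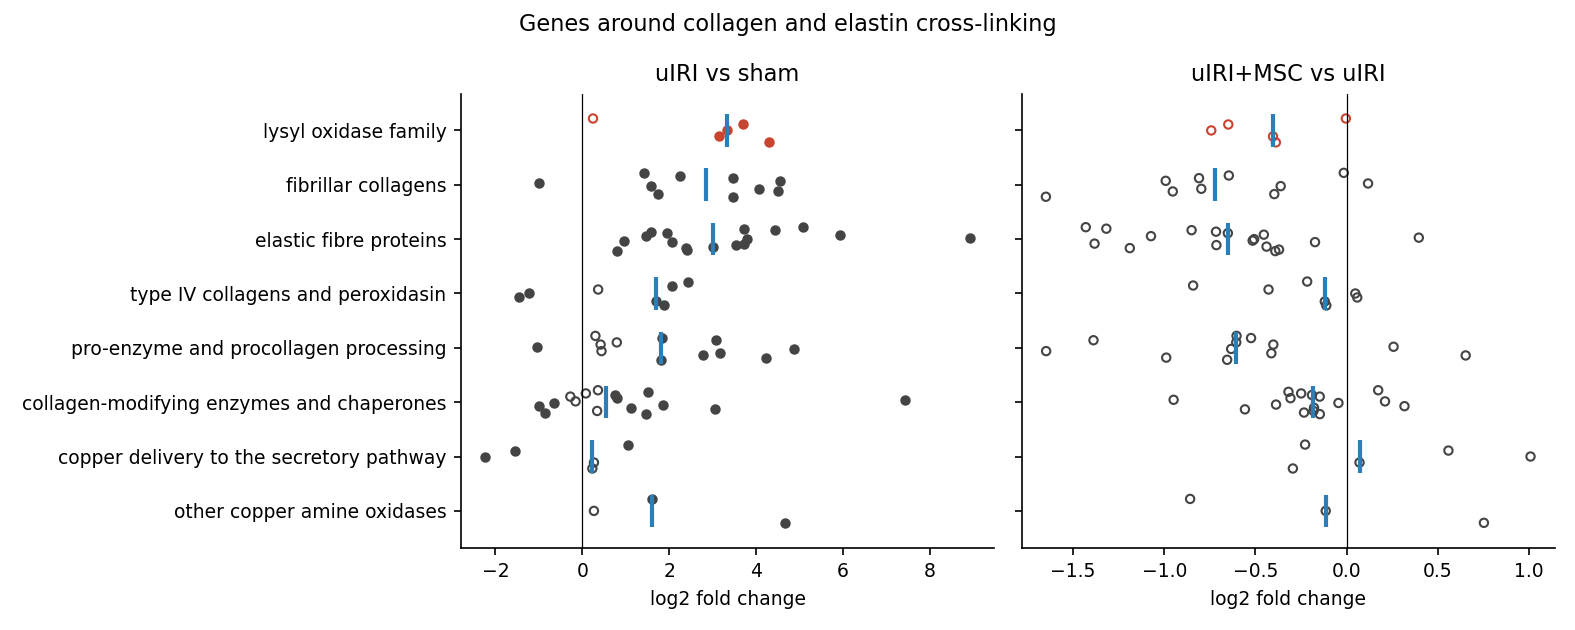
Log2 fold change of every tested gene in the family and in 7 lists around it, for uIRI against sham and for uIRI+MSC against uIRI, with filled points for an adjusted p under 0.05 and a blue bar at the list median. In uIRI against sham 4 of 5 family members and all 17 elastic fibre genes lie to the right of 0 and are filled, and no point is filled in uIRI+MSC against uIRI.

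Genes listed around the maturation of the family and its substrates differed from one another. The list holds matrix and enhancer proteins besides enzymes. Of its 13 genes for the processing of pro-enzymes and procollagen 12 were tested, of which 7 rose, 1 fell and 4 did not pass in uIRI against sham. Their median log2 change was 1.82. Bmp1, the protease that cuts the Lox pro-enzyme, rose by 3.16 ± 0.26, and Fn1, which encodes the fibronectin that holds Lox and Bmp1 near the cell surface, by 4.88 ± 0.45. Adamts2, which encodes the protease that trims procollagen at the amino end, rose by 4.22 ± 0.55. Furin, which encodes a convertase that activates Bmp1-type proteases, fell by 1.04 on the log2 scale. The 4 genes that did not pass were Tll1 (0.30), Pcolce (0.42), Pcolce2 (0.79) and Fmod (0.44).

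Some of the collagen lysines that the family oxidises are first hydroxylated inside the cell. Of 16 collagen-modifying enzymes and chaperones 8 rose, 3 fell and 5 did not pass in uIRI against sham, with a median log2 change of 0.55. Fkbp10, which encodes a chaperone needed for telopeptide lysine hydroxylation, rose by 3.06 ± 0.36, and Plod1, a lysyl hydroxylase gene, by 0.79 ± 0.15. The 5 that did not pass were P4ha2 (-0.16), Crtap (0.34), Ppib (0.08), Tgm2 (0.36) and Plod2 (-0.28), which encodes the hydroxylase of telopeptide lysines. The 3 genes that fell were P4ha1 (-0.65), P3h2 (-0.99) and Colgalt2 (-0.87). With library size alone 13 of the 16 rose and 0 fell, beside 9044 higher and 1989 lower of all 16576 tested genes. This division therefore rests on the scaling, which also moved the counts over all genes.

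The enzymes receive their copper in the secretory pathway. Of 5 genes of copper delivery 1 rose and 2 fell in uIRI against sham, beside 28.3% higher and 26.3% lower over all tested genes. Slc31a1, the gene of the main copper importer, changed by -1.54 ± 0.17 and Atp7b, which encodes a copper-exporting ATPase, by -2.23 ± 0.36, while Slc31a2 changed by 1.05 ± 0.20. Atp7a, whose product loads copper onto secreted enzymes including lysyl oxidase, had a log2 change of 0.27 ± 0.21 (adjusted p = 0.302, edgeR), and Atox1, which encodes the chaperone that serves it, of 0.23 (adjusted p = 0.688, edgeR). With library size alone 2 of the 5 rose, beside 9044 of all 16576 tested genes. Of the 3 other copper amine oxidase genes, Aoc1, which encodes diamine oxidase, rose by 4.65 ± 0.50 and Aoc3 by 1.61 ± 0.44, whereas Aoc2 stood at 0.27 (adjusted p = 0.338, edgeR). Without sham 1 only 1 of these 3 passed.

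Many markers of stromal cells also rose in uIRI against sham. The 12 fibroblast and pericyte markers had counts in every library, and 10 rose in that comparison. In uIRI+MSC against sham 7 of the 12 were higher, beside 22.1% of all tested genes. Their median log2 difference in uIRI+MSC against uIRI was -0.84, against -0.40 for the family, and none passed. Their summed CPM was 1134, 728 and 1123 in uIRI+MSC 1, 2 and 3 and 2121, 1511 and 1171 in uIRI 1, 2 and 3, against 321 and 373 in sham 1 and 2. Of 9 myofibroblast and smooth muscle markers 5 rose in uIRI against sham (2 without sham 1), and their summed CPM was 505 to 673 in uIRI+MSC, 721 to 1305 in uIRI and 306 to 476 in sham.

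Relative to the summed CPM of the fibroblast and pericyte markers, the 4 members that rose were higher in every uIRI library than in sham. The sum mixes markers whose log2 changes in uIRI against sham ran from 0.50 to 3.63, with a median of 2.54. Some markers, such as Pdgfra (3.22) and Dpt (3.63), rose more than Loxl1 (3.13), and Dpt also more than Loxl2 (3.33). The ratios therefore depend on which markers are summed. Per 100 CPM of these markers Lox had 4.53 to 8.50 CPM in uIRI+MSC and 3.82 to 5.90 CPM in uIRI, against 0.847 and 1.56 CPM in sham 1 and 2. Loxl1 had 7.69 to 11.98 CPM in uIRI+MSC and 6.995 to 8.68 CPM in uIRI, against 4.60 and 3.73 CPM in sham 1 and 2. Loxl2 had 5.93 to 6.26 CPM in uIRI+MSC and 5.92 to 6.68 CPM in uIRI, against 2.94 and 2.89 CPM in sham 1 and 2. The ratio of Loxl2 spanned a narrow range over all 6 injured libraries, and so did that of Loxl3, at 2.22 to 2.80 CPM in uIRI+MSC and 2.25 to 2.82 CPM in uIRI, against 0.787 and 0.913 CPM in sham 1 and 2. Loxl4 ran the other way, with 0.980 to 1.19 CPM in uIRI+MSC and 0.553 to 0.757 CPM in uIRI, against 3.51 and 1.70 CPM in sham 1 and 2. For Loxl4 this separation depended on the marker list. Per 100 CPM of the myofibroblast and smooth muscle markers it had 1.63 to 1.78 CPM in uIRI+MSC and 0.898 to 1.36 CPM in uIRI, against 1.33 to 3.69 CPM in sham, so that both injured groups overlapped with sham. Lox, Loxl1, Loxl2 and Loxl3 lay above sham in all 6 injured libraries by this list too, the nearest being Loxl1, with 12.8 to 17.3 CPM in uIRI+MSC and 11.4 to 15.6 CPM in uIRI, against 2.92 to 4.83 CPM in sham. These ratios were not tested.

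**Figure D5:**
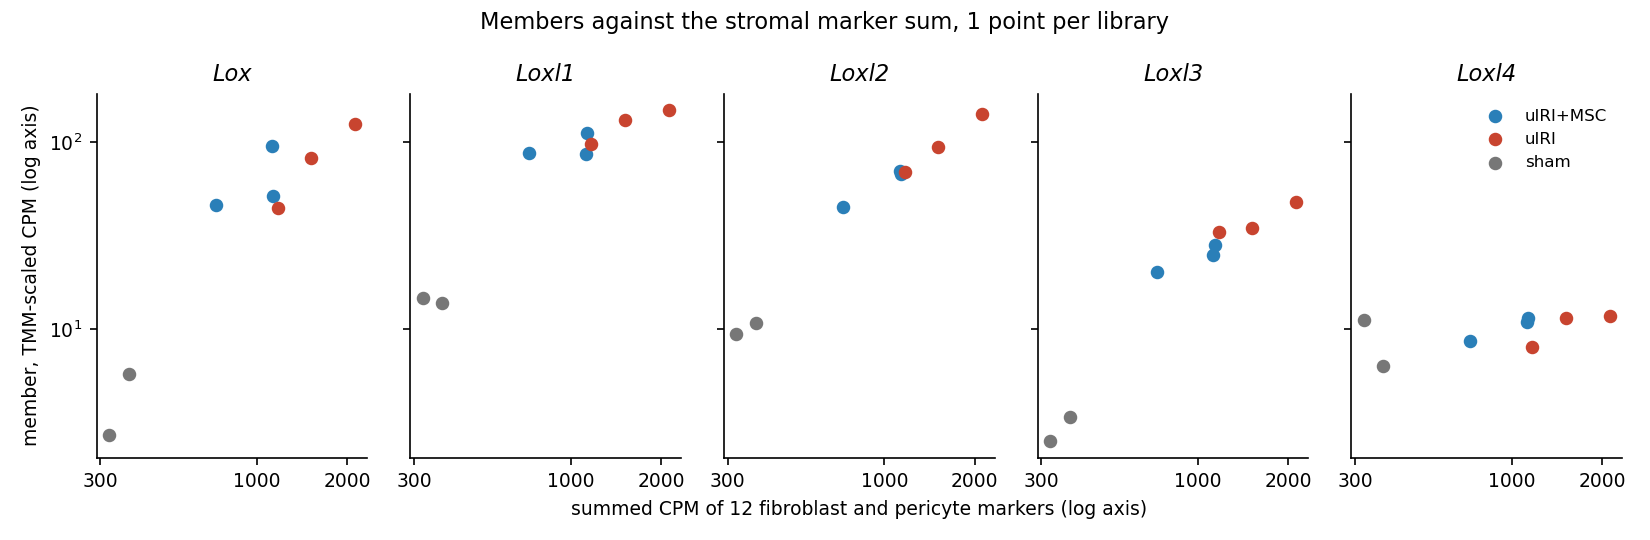
TMM-scaled CPM of each member (log axis) against the summed CPM of 12 fibroblast and pericyte markers (log axis), 1 point per library, coloured by uIRI+MSC, uIRI and sham. The library uIRI 1 has the highest marker sum (2121) and the highest value of each member, and the Loxl4 points lie between 6.35 and 11.7 CPM at every marker sum.

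Markers of other cell types also moved. Of 11 macrophage markers 10 rose in uIRI against sham, and the marker with 0 counts in some library was Cd163. Their summed CPM was 1952 to 2642 in uIRI+MSC, 3358 to 5088 in uIRI and 313 to 358 in sham. Of 10 endothelial markers 1 rose and 1 fell in uIRI against sham (2 and 0 without sham 2), with sums of 797 to 914 in uIRI+MSC, 932 to 996 in uIRI and 856 to 975 in sham. All 10 proximal tubule markers fell and all 9 failed-repair tubule markers rose in uIRI against sham. The summed CPM of the failed-repair markers was 2029.9 to 3209.8 in uIRI+MSC, wholly above the 1434 to 1962 in uIRI, with 150.4 to 188 in sham. Taken singly, 4 of these 9 markers lay wholly above uIRI and 1 wholly below, where 12.7% of all tested genes lay. Krt20 had 0 counts in some library. In uIRI+MSC against uIRI the median log2 difference was 0.42 for the failed-repair markers and 1.22 for the proximal tubule markers, against -0.40 for the family. None of these genes passed with edgeR. Mesothelial and adipocyte markers were low, with sums of 13.1 to 21.9 and 0.0715 to 4.95 in uIRI+MSC, 18.6 to 28.9 and 0.741 to 1.41 in uIRI, and 6.80 to 16.5 and 0.368 to 1.17 in sham. Of 5 mesothelial markers 3 and of 6 adipocyte markers 6 had 0 counts in some library. The part of any of these cell types in the levels of the family was not tested.

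The genes whose profile over the 8 libraries was nearest to that of each member were found by the root-mean-square difference of log2 CPM, centred on each gene's mean, over 12636 genes. For Lox these were Slc27a6 (0.27), Osmr (0.28), which encodes a receptor of oncostatin M, and Frem1 (0.31). Loxl1 was nearest to Dennd2a (0.08), Gpsm1 (0.09) and the protease gene Bmp1 (0.12). Loxl2 was nearest to Il1r2 (0.11), which encodes a decoy receptor of interleukin 1, Sh3pxd2b (0.13) and the collagen receptor gene Ddr2 (0.13). Loxl3 was nearest to Tnfsf13b (0.15), which encodes a cytokine that keeps B cells alive, and to Ncf1 (0.15) and Csf2rb (0.16), genes of myeloid cells, of which Csf2rb has a closely similar neighbour whose reads may be shared. Loxl4 was nearest to Gab2, Taf1b and Thumpd2, each at 0.16. For comparison, the median difference from all genes was 1.88 for Lox, 1.32 for Loxl1, 1.37 for Loxl2, 1.51 for Loxl3 and 0.49 for Loxl4.

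Between members the same measure was 0.25 for Loxl2 and Loxl3, 0.26 for Loxl1 and Loxl2, and 0.27 for Loxl1 and Loxl3. Lox differed from these 3 by 0.54 to 0.71 and Loxl4 from the other 4 by 1.17 to 1.75. All 8 libraries enter each of these values and the groups differ strongly in many genes, so the order of likeness describes these libraries only.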

How the data were processed

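The table deposited by the authors holds, for every gene, a count and an FPKM value in each library. The count columns are raw read counts, per the file headers, and the FPKM columns are the authors' scaling of those counts by gene length and library size. Programs listed in the submitters' processing notes, with no role stated, are HISAT2 2.0.4, Bowtie2 2.2.6, StringTie 1.3.3b, SAMtools 1.9, FastQC 0.10.1 and edgeR 3.2.0, on GRCm38. Not given in the sources used here were the counting program, the annotation release, the strand setting and the handling of multi-mapping reads.

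Genes were filtered with filterByExpr (minimum count 10) in edgeR 4.0.16 under R 4.3.3, scaled by TMM and fitted over all 8 libraries (5 residual degrees of freedom) with the quasi-likelihood test. Adjustment was by Benjamini and Hochberg over the 16576 tested genes, with a threshold of 0.05. A called or passing gene is one under that threshold, and ± beside a log2 change is its SE. CPM values are TMM-scaled, and log2 CPM uses a prior count of 2. FPKM served for levels between genes, for shares, and as a floor in the search for like genes.

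The alternatives were DESeq2 1.42.0, limma-voom (limma 3.58.1), median-of-ratios factors, library size alone, no filter, at least 50 counts in 2 libraries, only the groups compared, a replicate block, and 1 library left out at a time. A sham library left alone in this way was taken to vary like the libraries of the other groups. The fit was tested on simulated data. Copper-site stretches were read from GENCODE M21 transcripts (GRCm38), and no sequence of Lox is shown. From each list the text may name the 4 tested genes with the smallest p in uIRI against sham and 2 from each other comparison, and for each member the 3 nearest genes. Eln and genes that account for small counts, Plod2 among them, are named outside that rule. The members and lists were chosen with earlier results of these data known. Plots were made in matplotlib 3.10.9 with Python 3.11.15.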

Additional observations from a re-analysis of the deposited data

How the results depend on the processing

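The rises of Lox, Loxl1, Loxl2 and Loxl3 passed in both comparisons with sham under all 16 alternatives. Leaving out 1 library gave 3.87 to 4.96, 3.001 to 3.29, 3.02 to 3.55 and 3.52 to 3.95 for these 4 genes in uIRI against sham, and 3.50 to 4.59, 2.598 to 2.83, 2.51 to 2.77 and 2.88 to 3.32 in uIRI+MSC against sham. For Loxl4 library size alone gave a call at 0.93 (uIRI against sham) and 0.77 (uIRI+MSC against sham). Leaving out 1 library gave -0.089 to 0.74 and -0.081 to 0.74 for Loxl4, the lowest without sham 2. In uIRI+MSC against uIRI, DESeq2 called 1364 genes (794 higher, 570 lower) and 1 member, Loxl3 (-0.67), and leaving out 1 library gave 0 to 8 genes. There Lox ran from -0.77 to 0.015 (the highest without uIRI 1) and Loxl4 from -0.16 to 0.11, with 0.0030 by limma-voom, 0.08 without uIRI 1, 0.06 without uIRI 2, 0.11 without uIRI+MSC 2, 0.0084 without sham 1 and 0.0081 without sham 2. In uIRI+MSC against sham 7029 genes passed, and 3938 (without sham 1) to 6914 with 1 library fewer. The causes were not tested. Library size alone called 11033 genes in uIRI against sham (9044 higher, 1989 lower) and 8752 in uIRI+MSC against sham (7400 higher, 1352 lower).

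The labels do not say whether the replicate numbers pair the libraries. Deviations of same-numbered uIRI and uIRI+MSC libraries correlated at -0.05, 0.07 and -0.09, and those of differently numbered ones at -0.20 to 0.21. With so few libraries per group these values cannot decide whether there was pairing. With a replicate block 7959 genes passed in uIRI against sham and 5753 in uIRI+MSC against sham, 0 passed between uIRI+MSC and uIRI, and no call of a member changed. Counts of 26 to 63 for Lox and Loxl3 in sham limit their fold changes, and no alternative was left out.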
